A study of Mus musculus with 12 samples.

Results

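The genes described here are 10 transcription factors that give the insulin-producing β cell of the pancreatic islet its identity: Pdx1, Mafa, Nkx6-1, Nkx2-2, Neurod1, Pax6, Isl1, Foxa2, Rfx6 and Insm1. They were taken by name from 24421 gene symbols, and all 10 were among the 13583 genes expressed well enough to be tested. Islets were profiled by bulk RNA sequencing after 6 weeks of a high-fat diet. The 6 libraries labelled BKO came from Il22ra1βKO mice, in which β cells lack Il22ra1, a receptor subunit for the cytokine interleukin-22. The 6 libraries labelled Cre came from Ins2Cre mice, the comparison group, which carry a Cre recombinase named for the insulin gene Ins2. The comparison asks whether loss of the receptor subunit goes with a different level of these factors. The labels name neither floxed alleles, strain, age and sex nor the Cre line of the BKO mice. They also leave unsaid how many animals stand behind a library, so the spread that p-values rest on may in part be technical.

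Pdx1, Neurod1, Foxa2 and Rfx6 act in the making of the pancreas and its endocrine cells, and Nkx2-2, Nkx6-1 and Pax6 take part in sorting endocrine cells into hormone types. Isl1 works in all endocrine cells, and Insm1 is needed to complete endocrine differentiation. Mafa comes last and marks the mature β cell of the mouse, where it binds the insulin promoter together with Pdx1 and Neurod1. In adult mouse islets Pdx1, Mafa and Nkx6-1 are largely restricted to β cells (Pdx1 is also made by δ cells), whereas the other members are also made by α cells or other endocrine cells, so that a bulk islet value of those is a sum over cell types.

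Between 10356093 and 12397139 reads per library were assigned to genes, and each member had between 658 and 4717 reads in every library. In counts per 1000000 gene reads (CPM), the islet hormone gene Ins2 averaged 71213 ± 14568 over BKO libraries and 74804 ± 8545 over Cre libraries. A mean below is given with its SD over the 6 libraries of a group, with BKO named first. A ± value beside a log2 fold change, BKO against Cre, is its SE, and some fold changes are given without one. Il22ra1, the targeted gene, had between 1 and 5 reads per library, too few to check the labels. Cre-1 stood apart from the other libraries in reads of low alignment quality (27.3% of its reads). No gene passed the test between genotypes (edgeR, quasi-likelihood, no replicate term, p-values adjusted over all genes, threshold 0.05), with 0% called higher and 0% called lower. With the replicate number as a block edgeR called 292 genes higher, 72 lower and 0 members. At an unadjusted p under 0.05, 8.7% of the genes were higher and 4.66% lower in BKO, and DESeq2 called 1.24% higher and 0.398% lower.

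Of the 10 members, 7 had a negative log2 fold change, against 47.2% of all tested genes, and none passed the test over all genes. The 95% interval excluded 0 for 4, all with lower means in BKO islets. These were Pdx1, Mafa, Nkx6-1 and Nkx2-2. Pdx1, Mafa, Nkx6-1 and Nkx2-2 were at 0.842, 0.784, 0.871 and 0.898 of their Cre means. The other 6, Neurod1, Pax6, Isl1, Foxa2, Rfx6 and Insm1, were between 0.985 and 1.08 of theirs. In each of the first 4 all 6 BKO libraries lay below the Cre mean, which was so for 5.47% of all tested genes. No member had all 6 above it, as 7.05% of genes did. At an unadjusted p under 0.05 edgeR had 4 of the 10 lower and 0 higher. No member had all BKO libraries beyond all Cre libraries, a pattern that 0.177% of all genes showed downward and 0.331% upward. The median log2 fold change of the 10 members was -0.022, against 0.0078 for all tested genes. It was -0.25 for the 3 β-restricted members and -0.0020 for the other 7. Markers of α cells and endothelial cells had higher means in BKO beside these values, and in bulk islets fewer β cells and less RNA per β cell cannot be told apart.

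**Figure D1:**
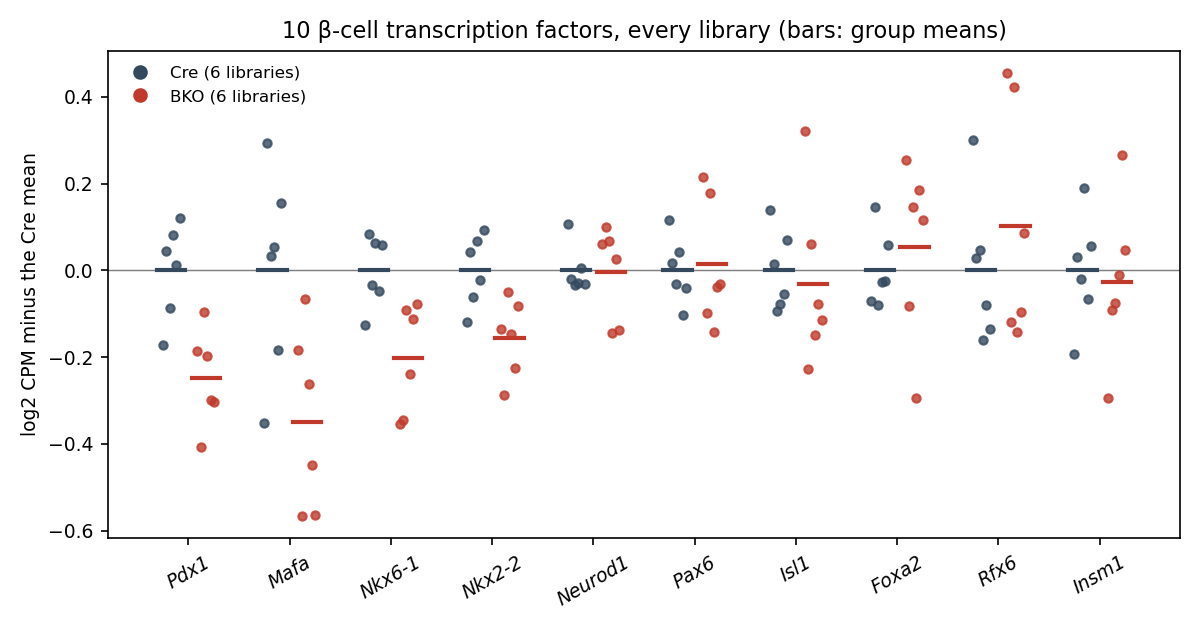
The plot shows, for each of the 10 factors (x axis), the log2 CPM of every library minus the mean of the 6 Cre libraries (y axis), with Cre in dark blue, BKO in red and bars at the group means. All 6 BKO points of Pdx1, Mafa, Nkx6-1 and Nkx2-2 lie below 0, while those of the other 6 factors lie on both sides.

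The promoters of 3 of the members with lower means, Pdx1, Nkx6-1 and Nkx2-2, and of Neurod1, whose group means were nearly equal, are printed to show which letters of known binding motifs stand before their RefSeq starts. Of the 10 members 8 had a window in the RefSeq table (GRCm38.p6); Mafa and Insm1 had none. Each sequence is the 250 bases before the RefSeq start, read 5′ to 3′ on the gene's strand, and capitals mark every match, on either strand, to one of 7 motifs: the homeodomain core TAATTA, the E box CANNTG that Neurod1 and other helix-loop-helix factors bind, the MAF motif TGCTGA, the RFX motif GTTGCC, the forkhead motif TGTTTAC, the NK2 core AAGTG and the CCAAT box. An NK2 core can overlap an E box. The RefSeq starts lie downstream of the outermost GENCODE starts used for the gene positions below, by 138 bases for Pdx1, 285 for Nkx6-1, 7841 for Nkx2-2 and 115 for Neurod1. The Nkx6-1 and Nkx2-2 windows therefore lie wholly inside the annotated gene, and the other 2 windows in part.
Pdx1 promoter, chr5:147269847-147270096, plus strand: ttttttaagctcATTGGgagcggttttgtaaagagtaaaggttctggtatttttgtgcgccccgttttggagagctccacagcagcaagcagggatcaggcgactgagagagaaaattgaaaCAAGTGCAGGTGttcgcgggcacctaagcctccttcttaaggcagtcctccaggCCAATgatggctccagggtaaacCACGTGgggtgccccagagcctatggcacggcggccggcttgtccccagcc
Nkx6-1 promoter, chr5:101664712-101664961, minus strand: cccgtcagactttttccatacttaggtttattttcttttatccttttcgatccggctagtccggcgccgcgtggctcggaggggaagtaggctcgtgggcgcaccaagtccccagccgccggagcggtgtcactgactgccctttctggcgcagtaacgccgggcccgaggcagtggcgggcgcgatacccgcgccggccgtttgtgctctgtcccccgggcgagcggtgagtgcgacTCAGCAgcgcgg
Nkx2-2 promoter, chr2:147186403-147186652, minus strand: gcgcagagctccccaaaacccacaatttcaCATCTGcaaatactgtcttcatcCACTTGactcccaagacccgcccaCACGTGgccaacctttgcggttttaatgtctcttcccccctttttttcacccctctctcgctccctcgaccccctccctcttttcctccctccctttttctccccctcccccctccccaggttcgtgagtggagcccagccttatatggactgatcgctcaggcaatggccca
Neurod1 promoter, chr2:79456637-79456886, minus strand: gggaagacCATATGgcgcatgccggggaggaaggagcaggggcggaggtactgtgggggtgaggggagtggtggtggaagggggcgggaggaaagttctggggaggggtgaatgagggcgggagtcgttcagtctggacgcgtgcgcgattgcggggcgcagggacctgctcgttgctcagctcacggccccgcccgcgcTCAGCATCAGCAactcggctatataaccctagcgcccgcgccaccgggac

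Pdx1 and Nkx2-2 each held 3 E boxes and 1 NK2 core within these 250 bases, Neurod1 held 1 E box and 2 MAF motifs, and Nkx6-1 held a single MAF motif and no other match. Of all 32851 promoter windows of this length, 66.2% held an E box, 40.7% an NK2 core, 33.8% a CCAAT box and 16.1% a MAF motif. Pdx1 also held 2 CCAAT boxes. The homeodomain core (4.84% of all windows) and the forkhead motif (3.17%) were in none of the windows of the 8 members, and the RFX motif (10.4%) was in one of the windows of Pax6. E boxes were also in windows of Pax6, Isl1 and Foxa2. A match is one of letters only.

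Pdx1 is the homeodomain factor that activates the insulin and Glut2 genes, and loss of a copy impairs glucose tolerance in mice. Its gene is ENSMUSG00000029644.7 (mm10 chr5:147269959-147275848, plus strand). Its lowest, median and highest levels were 85.6, 95.7 and 106 CPM in BKO and 101, 116 and 123 CPM in Cre. Only the lowest Cre library, Cre-1, reached into the BKO range, and 5 of 6 BKO libraries lay below every Cre library. The means were 95.8 ± 7.28 and 114 ± 8.52 CPM (n = 6 each). In log2 fold change this was -0.25 ± 0.061 (SE; 95% interval -0.38 to -0.12). With an edgeR adjusted p of 0.148 it ranked 66 by p among all genes. Pdx1 was the single member that an alternative called: DESeq2 gave an adjusted p of 0.0184, and edgeR without BKO-4 an adjusted p of 0.0447, where 0.93% of all genes were called lower.

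Mafa, the basic leucine zipper factor of β-cell maturity, had the widest separation of means and also a wide spread within each group. Its gene is ENSMUSG00000047591.5 (mm10 chr15:75745490-75748228, minus strand). Levels ran from 179 over a median of 207 to 253 CPM in BKO and from 208 over 273 to 325 CPM in Cre. The groups overlapped, with 3 of 6 BKO libraries below every Cre library. Means were 210 ± 30.5 against 268 ± 42.1 CPM (n = 6 each), and the log2 fold change was -0.35 ± 0.11 (SE; 95% interval -0.59 to -0.11; edgeR adjusted p = 0.210). DESeq2 and limma-voom gave adjusted p-values of 0.0575 and 0.0715.

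Nkx6-1 is a homeodomain repressor that keeps α-cell genes silent in β cells and sustains insulin processing and granule zinc uptake. Its gene is ENSMUSG00000035187.10 (mm10 chr5:101658139-101664996, minus strand). BKO libraries were at 146, 165 and 176 CPM (lowest, median, highest) and Cre libraries at 171, 188 and 197 CPM. Here 3 of 6 BKO libraries lay below every Cre library, and the other 3 lay in the lower part of the Cre range. The means of 162 ± 14.1 and 186 ± 10.5 CPM (n = 6 each) gave a log2 fold change of -0.20 ± 0.060 (SE; 95% interval -0.33 to -0.073; edgeR adjusted p = 0.182).

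Nkx2-2, an NK2-type homeodomain factor that β cells share with α and PP cells, had the smallest difference of these 4. Its gene is ENSMUSG00000027434.11 (mm10 chr2:147177546-147194243, minus strand). Its levels were 59.6, 66.0 and 70.2 CPM in BKO and 67.0, 73.3 and 77.6 CPM in Cre (lowest, median, highest), with 4 of 6 BKO libraries below every Cre library. The means were 65.5 ± 3.97 and 72.9 ± 4.11 CPM (n = 6 each) and the log2 fold change was -0.15 ± 0.055 (SE; 95% interval -0.27 to -0.039; edgeR adjusted p = 0.237). Its exons overlap the antisense gene Nkx2-2os, which had at most 6 reads in any library. The intronic antisense gene 6430503K07Rik had 53 to 129 reads and a log2 fold change of 0.072 ± 0.20 (SE; edgeR adjusted p = 0.929).

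Neurod1, the helix-loop-helix activator of insulin transcription, was at nearly the same mean in both groups. Its gene is ENSMUSG00000034701.9 (mm10 chr2:79452521-79456751, minus strand). Levels were 199, 226 and 235 CPM in BKO and 214, 216 and 236 CPM in Cre (lowest, median, highest), so the BKO range spanned most of the Cre range. Its log2 fold change was -0.0020 ± 0.054 (SE; edgeR adjusted p = 0.994), and its 95% interval, -0.12 to 0.11, excludes a difference as large as the fold change of Pdx1, Mafa, Nkx6-1 or Nkx2-2. Exons of Neurod1 overlap those of Cerkl on the same strand, which had 208 to 301 reads (log2 fold change 0.12 ± 0.086, SE; edgeR adjusted p = 0.599). Reads in the shared part cannot be assigned with certainty.

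Insm1, a zinc finger repressor needed to complete endocrine differentiation, was at 246, 293 and 363 CPM in BKO and 264, 303 and 344 CPM in Cre (lowest, median, highest). Both the lowest and the highest value belonged to BKO libraries. The log2 fold change was -0.022 ± 0.080 (SE; 95% interval -0.19 to 0.15; edgeR adjusted p = 0.950). The gene is ENSMUSG00000068154.5 (mm10 chr2:146221921-146225020, plus strand).

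Pax6, a paired-box and homeodomain factor that all islet endocrine cells make and that drives both the insulin and glucagon genes, was at 318, 342 and 407 CPM in BKO and 326, 349 and 379 CPM in Cre (lowest, median, highest). The Cre range lay inside the BKO range. The log2 fold change was 0.018 ± 0.065 (SE; 95% interval -0.12 to 0.15; edgeR adjusted p = 0.946). The gene is ENSMUSG00000027168.21 (mm10 chr2:105668900-105697364, plus strand), where the antisense gene Pax6os1 overlaps it outside its exons (143 to 254 reads; log2 fold change -0.053 ± 0.12, SE; edgeR adjusted p = 0.913).

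Isl1, a LIM homeodomain factor that works with the cofactor Ldb1 in all endocrine cells, was at 113, 124 and 165 CPM in BKO and 124, 130 and 146 CPM in Cre (lowest, median, highest). A single library, BKO-1, lay above the Cre range and 3 BKO libraries lay below it. The log2 fold change was -0.022 ± 0.079 (SE; 95% interval -0.19 to 0.14; edgeR adjusted p = 0.947). The gene is ENSMUSG00000042258.13 (mm10 chr13:116298281-116309689, minus strand).

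Foxa2, the forkhead pioneer factor that opens chromatin at pancreatic genes including Pdx1, was at 63.8, 85.6 and 93.4 CPM in BKO and 74.0, 76.9 and 86.5 CPM in Cre (lowest, median, highest). Its BKO values lay on both sides of the Cre range, and the log2 fold change was 0.063 ± 0.078 (SE; 95% interval -0.10 to 0.23; edgeR adjusted p = 0.800). It was 0.015 without BKO-1 and 0.11 without BKO-4. The gene is ENSMUSG00000037025.11 (mm10 chr2:148042877-148046969, minus strand).

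Rfx6, a winged-helix factor of all endocrine lineages that controls calcium channel and secretion genes in β cells, had the highest fold change of the 10 without passing. It was at 140, 155 and 212 CPM in BKO and 138, 152 and 191 CPM in Cre (lowest, median, highest). The medians were close, and 2 BKO libraries, BKO-1 at 212 CPM and BKO-3 at 208 CPM, lay above all Cre libraries. The log2 fold change was 0.11 ± 0.12 (SE; 95% interval -0.14 to 0.37; edgeR adjusted p = 0.750), with 0.031 without BKO-1 and 0.16 without Cre-1. The gene is ENSMUSG00000019900.19 (mm10 chr10:51677756-51730432, plus strand).

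**Figure D2:**
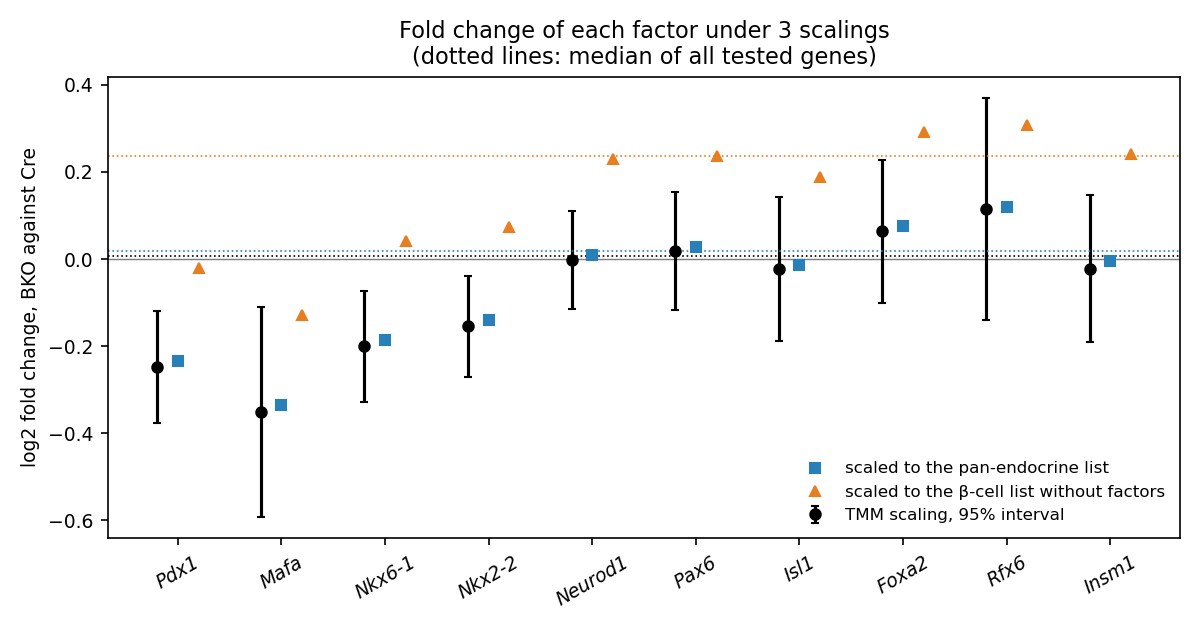
Log2 fold change of BKO against Cre (y axis) for each factor (x axis): black circles with 95% intervals for the main scaling, blue squares with libraries scaled to a pan-endocrine gene list, orange triangles with libraries scaled to a β-cell gene list without factors, and dotted lines at the median of all tested genes in the same colours. The intervals of Pdx1, Mafa, Nkx6-1 and Nkx2-2 exclude 0 under the main scaling, with none of them adjusted for multiple tests, and the orange triangles are all shifted upward with the median of all genes (0.24).

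The library means of the 3 β-restricted members and of the other 7 were compared as deviations from the Cre mean in log2 units. The β-restricted mean was -0.27 ± 0.12 in BKO, between -0.44 (BKO-2) and -0.085 (BKO-3), and had an SD of 0.13 around 0 in Cre, between -0.22 (Cre-1) and 0.14 (Cre-2). For the other 7 it was -0.0069 ± 0.11 in BKO and had an SD of 0.038 in Cre (n = 6 each). Thus BKO libraries differed among themselves in the shared endocrine factors more than Cre libraries did, with BKO-1 at 0.13 and BKO-4 at -0.15. Cre-1, the library with many low-quality alignments, was the lowest Cre library for 5 members (Pdx1, Mafa, Nkx6-1, Nkx2-2 and Insm1) and the highest Cre library for 4 (Neurod1, Pax6, Isl1 and Rfx6). BKO-1 was the highest of all libraries for 4 members (Pax6, Isl1, Foxa2 and Rfx6) and the lowest for 2 (Nkx6-1 and Insm1). Without Cre-1 the log2 fold changes of Pdx1, Mafa, Nkx6-1 and Nkx2-2 were -0.30, -0.43, -0.24 and -0.19, and without BKO-1 they remained negative.

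Per kilobase of exon, which allows levels of different genes to be set side by side, Mafa and Insm1 led in Cre islets. The order in Cre, in CPM per kilobase, was Mafa 97.7 ± 15.4, Insm1 97.7 ± 8.68, Neurod1 80.4 ± 3.13, Nkx6-1 59.3 ± 3.34, Pdx1 52.7 ± 3.95, Rfx6 38.8 ± 4.79, Isl1 33.4 ± 2.16, Foxa2 33.1 ± 2.02, Pax6 29.99 ± 1.58 and Nkx2-2 25.3 ± 1.43 (SD, n = 6 each). Neighbours in this order overlapped in range except at 2 steps, between Neurod1 and Nkx6-1 and between Pax6 and Nkx2-2. In BKO the order was Insm1 96.2 ± 12.4, Neurod1 80.3 ± 5.89, Mafa 76.6 ± 11.1, Nkx6-1 51.7 ± 4.49, Pdx1 44.4 ± 3.37, Rfx6 42.1 ± 8.25, Foxa2 34.5 ± 4.63, Isl1 32.9 ± 4.76, Pax6 30.4 ± 3.18 and Nkx2-2 22.8 ± 1.38. Mafa thus stood level with Insm1 in Cre and below Neurod1 in BKO, within overlapping ranges. Pax6 has 26 annotated transcripts and the longest summed exon length, 11694 bases, so its level per kilobase is a low estimate.

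**Figure D3:**
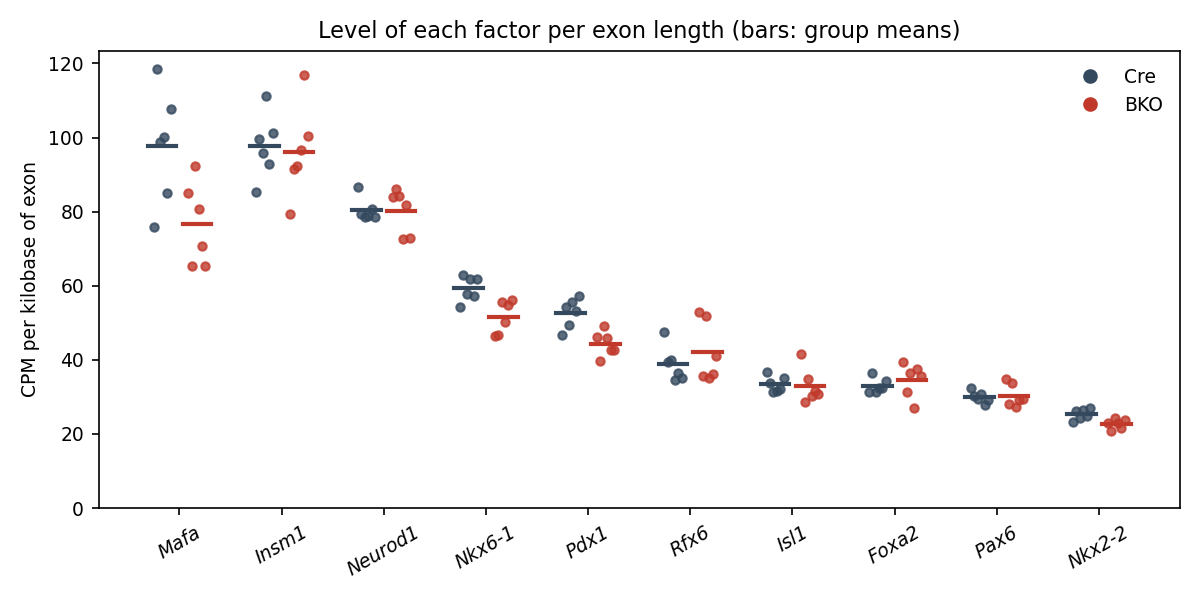
CPM per kilobase of exon (y axis, from 0) in every library for each factor, in order of the Cre mean (x axis), with Cre in dark blue, BKO in red and bars at the group means. Levels of the 10 factors run from Nkx2-2 (25.3 in Cre) to Mafa (97.7 in Cre), and the red bars lie below the dark blue ones most clearly for Mafa, Nkx6-1 and Pdx1.

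Factors of other islet cells were at higher means in BKO. Of 6 tested factors of α and δ cells, all 6 had a positive log2 fold change (median 0.38), 5 had an unadjusted p under 0.05 and 0 passed edgeR's test over all genes. The α-cell factor Irx2 had a log2 fold change of 0.55 ± 0.16 (edgeR adjusted p = 0.169, DESeq2 0.0410). In edgeR the adjusted p of Irx2 was 0.0388 without BKO-4 and 0.0393 with libraries scaled to the β-cell list described below. The δ-cell factor Hhex was at 0.36 ± 0.13 (edgeR adjusted p = 0.251). Of these factors 4 are also among the α-cell markers below.

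Genes that these factors are known to activate had lower means in BKO more often than not, and none passed edgeR's test with all libraries and no replicate term. The 20 target genes were listed with earlier results of these data known, and 10 of them are also the β-cell genes described below. Of all 20, 16 had a negative log2 fold change, against 47.2% of all tested genes, and the median was -0.16. At an unadjusted p under 0.05, 6 were lower and 1, the growth factor receptor gene Fgfr1 (0.24 ± 0.098, edgeR adjusted p = 0.293), higher; edgeR called 0 over all genes, and DESeq2 called 1 lower. That gene was Glp1r, the incretin receptor of β cells, averaging 211 ± 17.3 and 269 ± 27.4 CPM (log2 fold change -0.35 ± 0.071; edgeR adjusted p = 0.121, DESeq2 0.00534). The prohormone convertase Pcsk1 was at 580 ± 99.8 and 720 ± 53.8 CPM (-0.31 ± 0.095, edgeR adjusted p = 0.192). Without BKO-4 edgeR called both Glp1r (adjusted p = 0.0259) and Pcsk1 (0.0202) lower, and it called Glp1r also without Cre-1 (0.0439) and without Cre-5 (0.0389). Hadh, a mitochondrial β-oxidation enzyme controlled by Foxa2, had a log2 fold change of -0.26 ± 0.081 (edgeR adjusted p = 0.193), and pyruvate carboxylase, Pcx, at -0.16 ± 0.056 (edgeR adjusted p = 0.222). The insulin genes Ins1 and Ins2 were at -0.20 ± 0.11 and -0.071 ± 0.12 (edgeR adjusted p = 0.440 and 0.865), and because their sequences are nearly identical the split of reads between them is uncertain. Abcc8 (-0.023), Kcnj11 (-0.049) and Cacna1a (0.0080) had small fold changes.

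Other islet transcription factors and the cofactors that the members recruit were centred near 0. Among 16 tested islet factors the median log2 fold change was 0.018, with 8 positive and 8 negative and 0 called by DESeq2 or by edgeR without a replicate term. In log2 fold change Mnx1, a homeodomain factor of β cells, was at -0.19 ± 0.084 (edgeR adjusted p = 0.330), Fev, a factor of endocrine precursors, at 0.44 ± 0.18 (edgeR adjusted p = 0.293), the ETS factor Etv1 at 0.33 ± 0.15 (edgeR adjusted p = 0.375) and Foxo1, a forkhead factor restrained by insulin signalling, at -0.089 ± 0.054 (edgeR adjusted p = 0.521). Pax4 had no read in any library, and Foxa1 and Bach2 were below the filter. Among 15 cofactors the median was 0.011 with 8 positive, 7 negative and 0 called by edgeR or DESeq2. The chromatin remodeller Smarca4, which Pdx1 recruits, was at -0.12 ± 0.055 (edgeR adjusted p = 0.349), the E protein Tcf3 at 0.10 ± 0.060 and the Isl1-Ldb1 partner Ssbp3 at -0.11 ± 0.071 (edgeR adjusted p = 0.509 and 0.571). Ldb1 itself was at 0.026 ± 0.051 (edgeR adjusted p = 0.887).

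**Figure D4:**
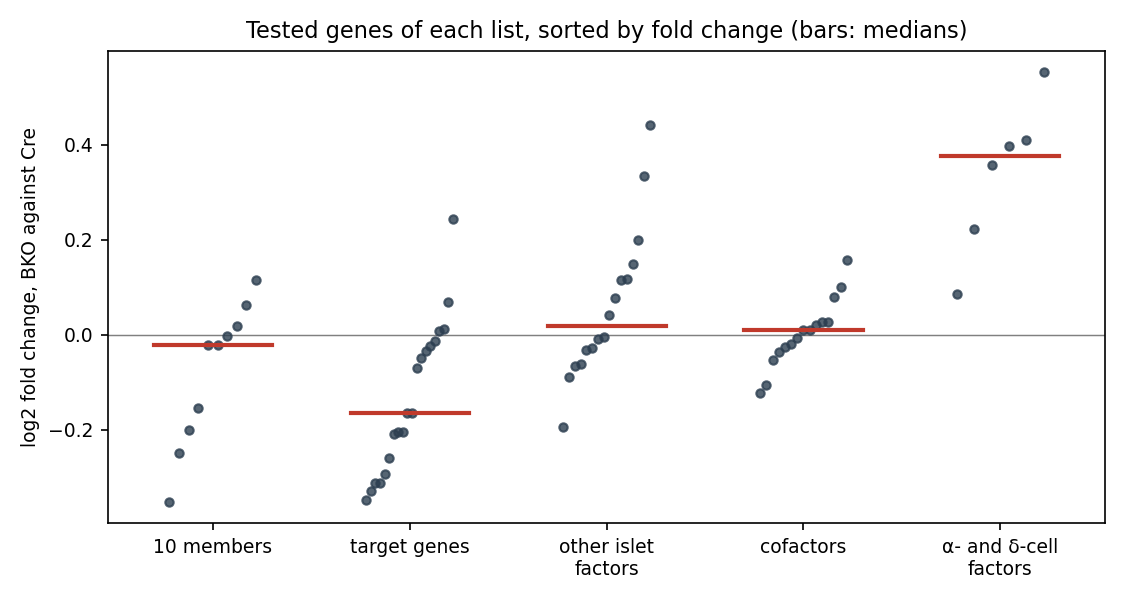
Log2 fold change of BKO against Cre (y axis) of every tested gene of 5 lists (x axis), sorted within each list, with red bars at the medians. Medians are -0.022 for the 10 members, -0.16 for target genes, 0.018 for other islet factors, 0.011 for cofactors and 0.38 for factors of α and δ cells.

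Cell-type markers differed in mean between the genotypes beside these results. The mean log2 CPM of 10 β-cell genes other than factors was 10.27 ± 0.256 in BKO and 10.49 ± 0.0904 in Cre, with 9 of the 10 genes negative, 4 BKO libraries below every Cre library and 1, BKO-1, above every Cre library. All of these β-cell genes are also in the target list. The pan-endocrine mean was nearly equal, 10.25 ± 0.0261 against 10.26 ± 0.0739, and its 11 genes together ran from 22970 to 24594 CPM in BKO and from 22612 to 25542 CPM in Cre. All 7 α-cell markers and all 15 endothelial markers were positive, with medians of 0.41 and 0.45, and their summed levels were 12491 to 24806 against 9053 to 14486 CPM (α) and 632 to 947 against 498 to 728 CPM (endothelial). With all libraries, the main scaling and no replicate term edgeR called 0 of these. Without BKO-4 it called 4 α-cell and 5 endothelial markers higher, among 135 of 13656 genes called higher. Without Cre-5 it called 8 endothelial markers higher (105 of 13636 genes), and without BKO-3 it called 1 (5 of 13655 genes). Scaled to the β-cell list it called 3 α-cell and 2 endothelial markers higher (34 of 13583 genes). DESeq2 called 3 α-cell and 9 endothelial markers higher, against 1.24% of all genes. Markers of δ and PP cells, which also make Pdx1 (δ) and Nkx2-2 (PP), were positive in 6 of 6 tested genes (median 0.30, 3 with an unadjusted p under 0.05, 0 called by DESeq2 or by edgeR without a replicate term), and summed to 5649 to 10702 against 4390 to 8885 CPM. Stellate markers (12 of 13 positive, median 0.38, 178 to 272 against 129 to 239 CPM), duct markers (6 of 9, median 0.35, 1998 to 3247 against 2162 to 2680 CPM) and acinar markers (9 of 10 tested, median 0.53, 1403 to 5192 against 291 to 6340 CPM) were also higher in BKO at the median, and macrophage markers lower (8 of 9 negative, median -0.37, 124 to 156 against 137 to 174 CPM). DESeq2 called 2 stellate and 2 duct markers higher and 0 acinar markers. It also called 1 macrophage marker in each direction, Cd14 higher (log2 fold change 1.26) and Itgax lower (-1.26). With all libraries, the main scaling and no replicate term edgeR called 0 of these. Scaled to the β-cell list it called 1 stellate and 1 duct marker higher, where 34 of 13583 genes were called higher. Without BKO-3 it called 1 duct marker higher. Without BKO-4 it called 1 stellate marker higher, and 1 duct and 1 macrophage marker in each direction. Without Cre-5 it called 3 stellate and 2 duct markers higher. No marker of these lists was at 0 in all libraries. Beyond the scalings and covariates that follow, their part in the lower means of Pdx1, Mafa, Nkx6-1 and Nkx2-2 was not tested.

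With libraries scaled to the pan-endocrine list, the log2 fold changes of Pdx1, Mafa, Nkx6-1 and Nkx2-2 were -0.23, -0.33, -0.19 and -0.14, close to the values above. Scaled to the β-cell list, which itself had a lower mean in BKO, the median of all genes moved to 0.24, and the same 4 genes were at -0.021, -0.13, 0.041 and 0.074. Relative to that median they were at -0.26, -0.37, -0.20 and -0.16. Subtracting the median largely undoes a change of scaling. Closeness of these distances to those under the main scaling therefore follows from the calculation and is no separate support. The mean log2 CPM of endothelial markers was 5.16 ± 0.198 in BKO and 4.69 ± 0.213 in Cre. With this score as a covariate, Pdx1 was at -0.14 ± 0.094 and Nkx6-1 at -0.18 ± 0.0999 (SE; edgeR adjusted p = 0.990 for each). Nkx2-2 was at -0.061 ± 0.086 and Mafa at -0.028 ± 0.14 (SE; edgeR adjusted p = 0.990 and 0.993). Rfx6, Pax6 and Isl1 were at 0.31, 0.15 and 0.10 (edgeR adjusted p = 0.990 for each). Without the covariate the SEs of Pdx1, Nkx6-1, Nkx2-2 and Mafa were 0.061, 0.060, 0.055 and 0.11. At an unadjusted p under 0.05, edgeR had 267 genes higher and 189 lower with the covariate, against 1182 and 633 without it. The score itself differed between the genotypes, so this fit cannot separate its part from that of genotype. With the acinar score in place of the endothelial score, Pdx1 was at -0.22, Nkx6-1 at -0.20, Nkx2-2 at -0.13 and Mafa at -0.36.

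The genes most like a member across the 12 libraries were those whose log2 ratio to it had the smallest SD, among 10196 genes with a mean log2 CPM of at least 3. For Pdx1 these were Rcan2, a calcineurin regulator (SD of the ratio 0.066), Gcsh of the glycine cleavage system (0.067), Sorbs2 (0.077), the calcium pump gene Atp2a3 (0.078) and B630019K06Rik (0.078), against a median of 0.21 over the candidates. Nkx6-1 was most like Dexi (0.058), Sh3pxd2a (0.059), Ptpdc1 (0.070), Fam207a (0.073) and the mitochondrial carrier Slc25a44 (0.075), with a median of 0.19. For Mafa the closest genes followed it less tightly: Best3 (0.14), the cation channel Trpm2 (0.14), Cxx1b (0.15), the ADP receptor P2ry1 (0.15) and Igsf1 (0.15), with a median of 0.30. All of these had a negative log2 fold change, between -0.33 (Igsf1) and -0.12 (Fam207a). DESeq2 called 5 of them lower (Gcsh, Sorbs2, Atp2a3, B630019K06Rik and Igsf1), against 0.398% of all genes. With all libraries and no replicate term edgeR called 0. Without BKO-4 it called 4 lower (Gcsh, Sorbs2, Atp2a3 and Igsf1), against 0.93% of all genes. Without Cre-1 it called Atp2a3 lower (adjusted p = 0.0490), against 0.0366% of all genes. The mean of the 10 members was followed closely by BC004004, Cdc5l, Taok2 and Kcnj11, the pore subunit of the ATP-sensitive potassium channel (SD of the ratio 0.042, 0.044, 0.044 and 0.054). Likeness in level over these libraries includes the genotype difference and is a description.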

How the data were processed

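Islet total RNA was extracted with TRIzol and sequenced as paired-end Illumina libraries made with a VAHTS kit, per the labels' protocols. HISAT2 2.0.5, HTSeq and mm10 were used, per the submitters' processing notes; the annotation and strand setting are not named there. Each sample file deposited by the authors holds raw read counts of 24421 gene symbols. The 5 htseq-count summary lines (no feature 9.90% and 9.41%, ambiguous 1.21% and 1.18%, low quality 18.6% and 20.2%, not aligned 2.43% and 2.47%, not unique 5.08% and 5.02% of reads in BKO and Cre) were left out. A joint table, also deposited, holds CPM; 100% of its values came out as whole reads within 0.001 reads. These reads equalled those of the sample files for all 24420 genes of the joint table. edgeR on them, an alternative chosen after seeing the data, therefore repeated the main fit and called 0 genes.

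The members and lists were chosen with earlier results of these data known. edgeR 4.0.16 (R 4.3.3) was run with filterByExpr, TMM factors (0.976 to 1.02), robust glmQLFit and glmQLFTest, and Benjamini-Hochberg adjustment over 13583 genes at 0.05. Text CPM use TMM-scaled library sizes, except the summed levels of marker lists, which use total gene reads without TMM factors. Fold changes are BKO against Cre. Scores are mean log2 CPM with a prior count of 0.5. The test was tried on simulated counts. Alternatives were DESeq2 1.42.0, limma-voom (limma 3.58.1) with quality weights, other scalings, filters and covariates, the replicate number as a block, and each library left out. No replicates looked like copies of a library (chi-square over degrees of freedom 5.08 to 30.05). Named genes are the members, Il22ra1, the 4 smallest p of each list of factors, cofactors and targets, genes overlapping a member and the 5 most alike, some of which, with the ratios that need them, are not reported here; further targets (Fgfr1, Ins1, Ins2, Abcc8, Cacna1a) and Ldb1 were named after their values were seen. Positions and exon lengths are from GENCODE M21 (GRCm38, which is mm10), and promoters from RefSeq.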

Additional observations from a re-analysis of the deposited data

Results flagged for a closer look

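Neurod1 in Cre-1 stood apart from the other 5 Cre libraries, at 236 CPM against 214 to 220 CPM. Its gap to the nearest library was 0.732 of the range of the group; Dixon's test at 95% marks such a gap. Of 26 groups of 6 libraries examined this was the single one, and chance gives about 1 in 20. Cre-1 is also the library with the highest share of low-quality alignments (27.3%), and without it the log2 fold change of Neurod1 was 0.0031. The part of alignment quality in this value was not tested.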

How the results depend on the processing

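Of 100 values of Pdx1, Mafa, Nkx6-1 and Nkx2-2 under the alternatives, 98 were negative and 2 passed the threshold, both for Pdx1 (DESeq2, and edgeR without BKO-4). The alternatives reuse the same libraries, so these signs are not independent of one another or of the main fit. edgeR on the recovered reads and edgeR without the robust setting return the main fold changes. Of 150 values of the other 6 members, 0 passed and 17 changed sign. Scaling to the β-cell list gave 0.041 for Nkx6-1, 0.074 for Nkx2-2, 0.23 for Neurod1, 0.19 for Isl1 and 0.24 for Insm1, medians of 0.21 for the 10 members and -0.021 for the 3 β-restricted ones, and 34 genes called higher; the median of all genes moved to 0.24 there. Neurod1 was at 0.0033 with upper-quartile factors and 0.0090 with pan-endocrine scaling, and Isl1 at 0.10 and 0.0043 with the endothelial and acinar scores as covariates; the cause was not tested. DESeq2 called 1 member, 169 genes higher and 54 lower, and the cause of that gap to edgeR was not tested.

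With single libraries left out, log2 fold changes ran from -0.30 to -0.23 for Pdx1, -0.43 to -0.30 for Mafa, -0.24 to -0.18 for Nkx6-1, -0.19 to -0.14 for Nkx2-2, -0.038 to 0.0088 for Neurod1, -0.031 to 0.032 for Pax6, -0.11 to 0.0012 for Isl1, 0.015 to 0.11 for Foxa2, 0.031 to 0.16 for Rfx6 and -0.098 to 0.021 for Insm1. Members called ran from 0 to 1, genes called higher from 0 to 135 and lower from 0 to 127. The highest counts came without BKO-4. Without BKO-3 the test called 5 higher, without Cre-1 it called 1 higher and 5 lower, and without Cre-5 it called 105 higher and 5 lower.

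Replicate numbers are shared between the groups, and 4 of 6 BKO libraries correlated best with the Cre library of their own number. Same-numbered libraries correlated at -0.064 to 0.26 over 6 pairs. These values do not settle whether the numbers mark pairs. With the number as a replicate block edgeR called 292 genes higher, 72 lower and 0 members (Pdx1 adjusted p = 0.0514). Among named genes this fit called Glp1r (0.0175), Pcsk1 (0.0290), Atp2a3 (0.0224), Igsf1 (0.0446) and Sorbs2 (0.0470) lower and Irx2 (0.0157) and Etv1 (0.0249) higher. By list it called higher 1 of 16 islet factors and 2 of 6 factors of α and δ cells. Among markers, 4 α-cell, 3 δ- and PP-cell, 11 endothelial, 5 stellate and 4 duct genes were called higher. It called lower 2 of 20 targets, 1 of 10 β-cell genes (Glp1r, also a target) and 1 pan-endocrine gene. One direction each was called for 1 macrophage marker, Cd14 higher and Itgax lower. Over all 13583 genes, 292 were called higher and 72 (0.53%) lower. Counting error was at most 3.90% for any member, against coefficients of variation between libraries of 3.90% (Neurod1 in Cre) to 19.6% (Rfx6 in BKO).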
